A study of Mus musculus with 9 samples.

Results

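Monocytes isolated from the spleens of mice that received vancomycin and then the lipid L654 (VanLip) were compared with those of water-gavaged mice (Con). The comparison used the 10524 genes, of 46072 in the tables, whose mean FPKM over the 3 Con and 3 VanLip libraries was 1 or more, leaving out symbols that mark pseudogenes or unnamed gene models. FPKM counts the fragments of a gene per kilobase of its transcript, after scaling by library size. The members nearest to that limit were Tbc1d32 and A630052C17Rik, at means of 1.0003 and 1.0005 FPKM, and the nearest genes outside it were Carf and Rnf24 at means of 0.9997 and 0.9985 FPKM. All mice were female C57BL/6 mice of 8 to 10 weeks. VanLip mice received 2 mg of vancomycin per day by gavage for 6 days, a rest without antibiotic that the labels give as 6 to 8 days, and L654 by retro-orbital injection on days 7, 9 and 11. Con mice received water by gavage and no lipid, and the Van mice, used here only for reference, received vancomycin and no lipid. The paper describes vehicle injections for controls of its lipid experiments but does not state them for the Con and Van mice sequenced. Without them, injection and L654 could not be told apart. Each group had 3 libraries, from 3 mice. No group received L654 without vancomycin, and the cells were enriched by removing other cell types, so that other splenic cells can remain.

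Monocytes are circulating and splenic phagocytes that sense microbes through membrane Toll-like receptors and cytosolic NOD-like receptors. They display peptides from ingested material on MHC class II molecules and respond to stress with rapidly induced transcripts. L654 belongs to the serine-glycine lipids of Bacteroidota and is recognized by TLR2, and vancomycin reduces its bacterial sources in the gut. The comparison of VanLip with Con addressed what still differed from water-gavaged mice once the lipid had been given back.

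The VanLip libraries were sequenced more deeply and apparently with longer reads. Fragments estimated from the counts numbered between 16151385 and 22252406 fragments in Con and between 42625868 and 46180176 in VanLip, and the commonest low count was 1.33 in the former and 2.00 in the latter, which would fit reads of 100 and 150 bases. A longer read in VanLip is inferred from these counts only and departs from the methods, which name a single read length. Read length, depth and group cannot be told apart in this comparison. The 10 monocyte markers examined were present in every library, with a summed level of 9919 to 10501 FPKM in Con and 10027 to 11483 FPKM in VanLip, and 0 of the 10 were called.

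Of the 10524 members, 10483 had an adjusted p. With DESeq2 and Benjamini-Hochberg adjustment at 0.05, 696 members were called, which is 6.64% of those tested. The 304 members higher in VanLip made up 2.90% and the 392 lower in VanLip made up 3.74%. Over all genes with an adjusted p, 1104 of 16552 were called, or 6.67%, of which the higher genes made up 2.98% and the lower genes 3.69%. The median log2 fold change of the members was 0.02, close to 0. Of their fold changes 5809 were above 0 and 4715 below. A mean under 1 FPKM in Con or VanLip, so that the gene is a member only through the other group, was found in 190 members, of which 19 were called. Most called differences were small, since 559 of the 696 were under 1.5-fold and 47 were 2-fold or more, of which 24 were higher and 23 lower. At an unadjusted p under 0.05 there were 2145 members. In 679 of the 696 called members the 3 VanLip and the 3 Con libraries did not overlap, against 2600 of all 10524 members (24.7%). With TMM library sizes the split was reversed, to 444 higher and 292 lower. The edgeR quasi-likelihood test called 121 members (1.15%), 60 higher (0.570%) and 61 lower (0.580%), all of them among the 696. Over all genes the edgeR share was 1.14% (0.617% higher and 0.519% lower). Its p-values were adjusted over 25441 genes without a low-count filter, against 16552 in DESeq2. At an unadjusted p under 0.05 edgeR had 2115 members, close to the 2145 of DESeq2. Single libraries moved the DESeq2 count by over 1.5 times, which became 322, 374 or 448 when Con replicate 1, 2 or 3 was left out and 323 when VanLip replicate 2 was.

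**Figure D1:**
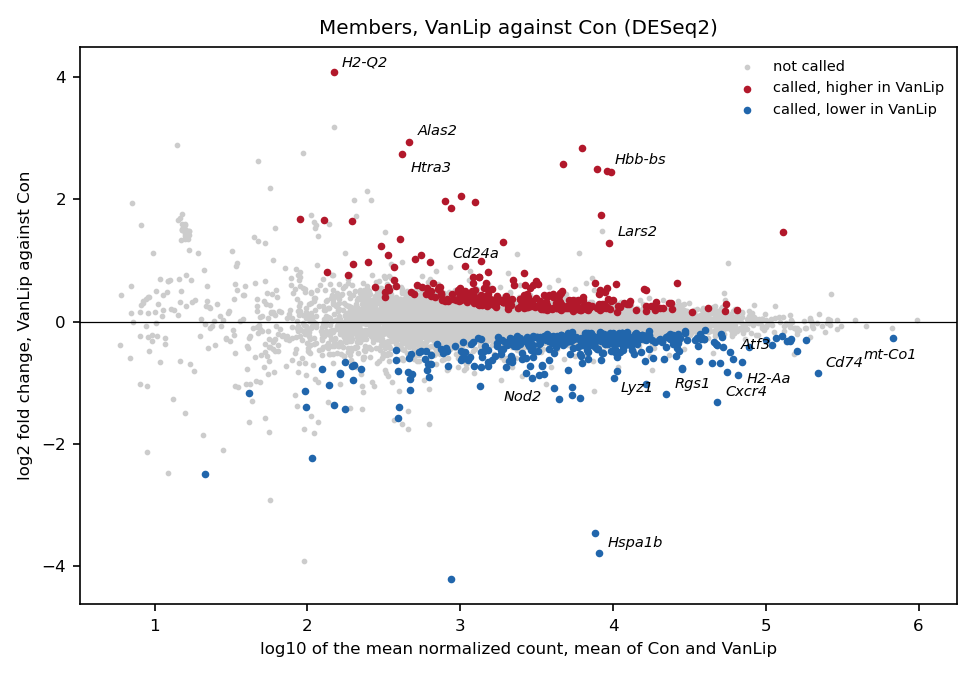
Each point is 1 of the members, with the log10 of its mean normalized count in Con and VanLip on the horizontal axis and its DESeq2 log2 fold change on the vertical axis. Called members are colored, and they spread on both sides of 0, with Hspa1b at -3.79 among the widest. H2-Q2, at 4.08, had a mean of 0.148 FPKM in Con and is a member through its VanLip level.

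Called members differed from the rest in gene structure. The median summed exon length was 4317 bases over all members, 3050 bases for members called higher and 6774 bases for members called lower. The median GC content was 49.5%, 53.9% and 46.0% in the same order, and the median number of exon blocks was 9, 6 and 11. When members were split by exon length into 5 equal groups, in the group with the longest exons 8.34% were lower and 0.810% were higher in VanLip, whereas in the group with the shortest 3.00% were lower and 4.19% were higher. The median log2 fold change was 0.09 in the shortest group and -0.06 in the longest. For Van against Con, whose libraries share the commonest low count of 1.33, these medians were 0.00 and -0.01. Members called for Van against Con had a median GC content of 51.8% when higher and 46.3% when lower, and median exon lengths of 5007 and 5528 bases, so a GC difference between higher and lower members was present in that comparison too. The part of read length in these patterns was not tested. After GC content and length had been corrected for, 258 members were higher and 298 lower, 473 of the 696 calls remained, and the medians of exon length were 3438 and 5212 bases.

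**Figure D2:**
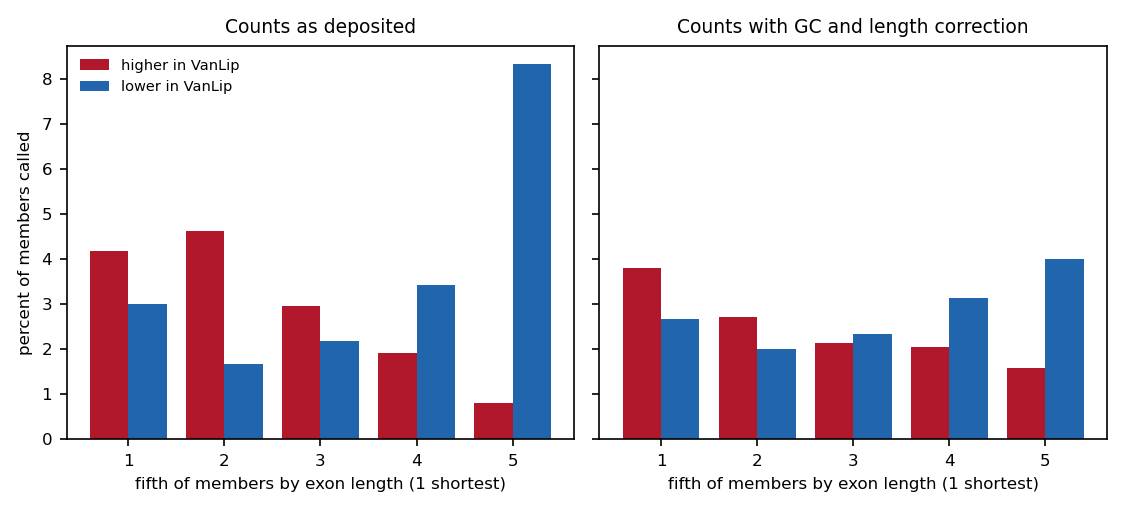
Bars give the percent of members called higher or lower in VanLip against Con (vertical axis) in 5 groups of members ordered by summed exon length (horizontal axis), from the counts as deposited and after the GC and length correction. Members called lower reach 8.34% in the longest group as deposited and 4.00% after the correction.

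The promoters of 4 genes called lower are shown here, 2 of MHC class II and 2 of the inducible heat shock genes, because known promoter elements can be looked for in both. MHC class II promoters carry a Y box, which holds an inverted CCAAT sequence, upstream of the start site, and heat shock promoters carry repeated GAA units read by heat shock factors. The sequences are the 250 bases before the RefSeq start site on GRCm38.p6, from 5′ to 3′ on the strand of the gene. H2-Aa (chr17:34287824-34288073, minus strand) and H2-Eb1 (chr17:34305617-34305866, plus strand) are shown with the letters CTGATTGG in capitals, and Hspa1a (chr17:34972157-34972406, minus strand) and Hspa1b (chr17:34959239-34959488, minus strand) with GAANNTTC in capitals.
H2-Aa: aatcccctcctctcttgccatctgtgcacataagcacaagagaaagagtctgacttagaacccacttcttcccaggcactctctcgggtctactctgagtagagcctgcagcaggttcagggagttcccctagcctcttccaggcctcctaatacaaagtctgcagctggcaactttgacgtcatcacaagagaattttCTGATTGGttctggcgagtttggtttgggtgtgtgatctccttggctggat
H2-Eb1: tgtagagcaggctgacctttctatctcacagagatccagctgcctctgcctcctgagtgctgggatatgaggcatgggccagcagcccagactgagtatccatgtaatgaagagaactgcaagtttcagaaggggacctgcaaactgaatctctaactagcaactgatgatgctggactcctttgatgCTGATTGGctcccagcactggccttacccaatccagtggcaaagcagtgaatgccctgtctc
Hspa1a: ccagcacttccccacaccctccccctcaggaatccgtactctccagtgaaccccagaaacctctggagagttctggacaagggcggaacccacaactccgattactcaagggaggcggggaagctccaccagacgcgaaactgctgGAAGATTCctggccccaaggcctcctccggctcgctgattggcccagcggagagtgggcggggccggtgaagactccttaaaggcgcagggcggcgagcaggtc
Hspa1b: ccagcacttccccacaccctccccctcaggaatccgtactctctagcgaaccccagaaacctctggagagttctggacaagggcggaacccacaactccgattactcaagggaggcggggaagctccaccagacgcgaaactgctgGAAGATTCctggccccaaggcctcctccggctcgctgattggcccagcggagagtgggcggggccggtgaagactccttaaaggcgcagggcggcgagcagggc

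Searched on both strands over the same 250 bases, CTGATTGG was found in 3.83% of 32851 promoters and GAANNTTC in 6.69%. CTGATTGG began 51 bases before the start site of H2-Aa and 62 bases before that of H2-Eb1. Among the 13 MHC class II members, 10 had a promoter in the table, and 4 of these held CTGATTGG, of which H2-Aa and H2-Eb1 were called and H2-Eb2 and H2-Oa were not. GAANNTTC began 104 bases before the start sites of Hspa1a and Hspa1b, and 7 of 18 cytosolic chaperone members with a promoter held it. Of these 7, Hspa1a, Hspa1b and Dnaja1 were called and Dnajb6, Fkbp4, Hspd1 and Hspe1 were not. The Hspa1a and Hspa1b stretches differed at 3 of 250 bases, and both also held CTGATTGG. These are matches of letters and not measured binding.

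MHC class II genes were lower in VanLip. Of the 13 members, 9 were called lower and 0 higher, against 3.74% lower over all members, and the median log2 fold change was -0.55, against 0.02 over all members. Ciita (chr16:10480059-10528418, plus strand, GRCm38 whole gene in GENCODE M21, as for the other genes so located), the transactivator that drives class II transcription, had normalized counts of 9505, 5772 and 6508 in Con and of 2854, 3194 and 4380 in VanLip. Every VanLip library lay below every Con library, and the log2 fold change was -1.06 (SE 0.20, DESeq2 adjusted p = 9.83e-06). H2-Aa, the alpha chain of the I-A molecule, had 100995, 75980 and 79470 normalized counts in Con and 32955, 51994 and 55381 in VanLip. The groups did not overlap, VanLip replicate 1 was the lowest, and the log2 fold change was -0.87 (SE 0.18, DESeq2 adjusted p = 0.000166). Its partner H2-Ab1 fell by 0.82 and H2-Eb1, the beta chain of I-E, by 0.68 on the log2 scale. Cd74, the invariant chain that occupies the peptide groove during transport, had 329186, 241985 and 268552 normalized counts in Con and 99868, 177129 and 193082 in VanLip. Its fall of 0.84 had an SE of 0.27 and an adjusted p of 0.0323 in DESeq2, and the call was lost in edgeR and when any of Con replicates 1, 2 or 3, Van replicates 2 or 3, or VanLip replicate 2 was left out.

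The peptide-loading genes followed with smaller values. H2-DMb2, H2-DMb1 and H2-DMa, which exchange peptide on class II molecules, fell by 0.63, 0.51 and 0.37 on the log2 scale, and H2-Ob, which restrains that exchange, fell by 0.55. H2-Oa and H2-Eb2 had log2 fold changes of -0.36 and -0.13 and were not called. The lysosomal genes Ctss and Ifi30, a protease and a reductase that prepare peptides, had -0.03 and 0.19 and were not called either. The Van libraries lay between the other groups for H2-Aa on average, with 75744, 55773 and 59634 normalized counts, and 0 of the 13 members were called for Van against Con, where the median was -0.33. Over all members, Van against Con called 6.30%, of which 3.55% were higher and 2.76% lower, and over all genes 4.34%, 2.27% and 2.06%. Both medians rest on the same Con libraries. edgeR called 3 of the 13, and without Con replicate 1 DESeq2 called 4. limma on log2(FPKM + 1) or log2(FPKM + 0.1) called 0, with 9 of the 13 at an unadjusted p under 0.05 in each, and limma on genes with a mean of at least 1 FPKM called 1. In MHC class I, 1 of 16 members was called lower, against 3.74% over all members. It was Nlrc5, the class I transactivator, at -0.53, and the median was -0.11. That count was 0 in edgeR, with TMM library sizes, with fragments, with thinned VanLip libraries, with the GC and length correction, without independent filtering, and without Con replicate 1 or 3, Van replicate 3 or VanLip replicate 1 or 2, and 2 without VanLip replicate 3.

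Markers of other antigen-presenting cells were also measured. The 7 dendritic cell markers summed to 117 to 140 FPKM in Con and to 96.7 to 121 FPKM in VanLip, and 2 of 7 were called lower, Cd209a at -0.73 and Xcr1 at -0.73, while Flt3 was at 0.32. The 8 B cell markers summed to 342 to 399 FPKM in Con and to 260 to 325 FPKM in VanLip, without overlap. Their median log2 fold change was -0.39. Of the 8, 1 was called, Ighm at -0.36, against 3.69% called lower over all genes, and 4 had a mean under 1 FPKM. The part of these cells in the MHC class II values was not tested. In bulk RNA, fewer cells of a type and less RNA per cell cannot be told apart.

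**Figure D3:**
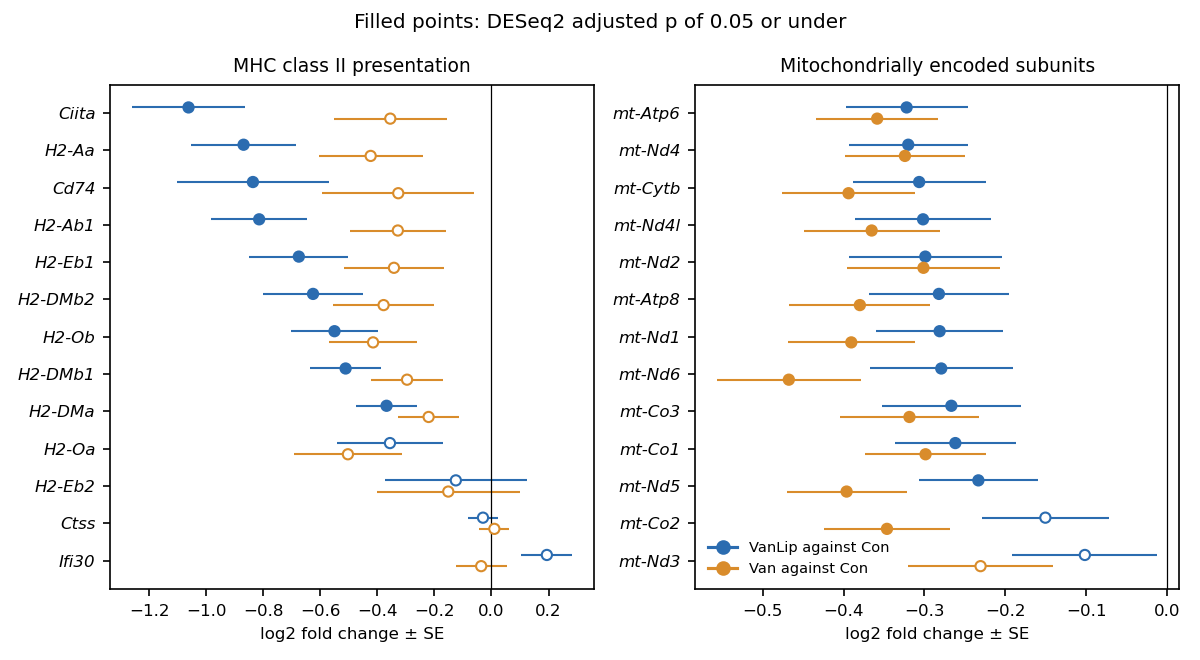
Log2 fold changes with standard errors (horizontal axis) of the 13 MHC class II genes and the 13 mitochondrially encoded subunits, for VanLip and Van each against the same Con libraries; filled points were called by DESeq2. Ciita lies lowest at -1.06 among the class II genes, and all 13 mitochondrial genes lie below 0 in both comparisons.

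The inducible heat shock genes Hspa1a and Hspa1b fell furthest among the genes of the 27 lists. Hspa1b had 15464, 7741 and 22019 normalized counts in Con, 17084, 17014 and 17911 in Van, and 528, 1570 and 1175 in VanLip. The VanLip libraries lay far below both other groups, with a log2 fold change of -3.79 against Con (SE 0.46, DESeq2 adjusted p = 1.20e-13). Hspa1a had a log2 fold change of -3.46 (SE 0.43, DESeq2 adjusted p = 4.08e-13), and it overlaps the gene model Gm20481. Both genes encode nearly the same HSP70 chaperone and can exchange reads, so their sum was taken too. It was 29098 ± 14110 normalized counts in Con and 2366 ± 1013 in VanLip (SD, n = 3 each), 12.3-fold lower in VanLip.

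Few other chaperones were called. Of 23 cytosolic chaperone members, 3 were called lower and 0 higher, against 3.74% lower over all members, and the median was -0.07. Dnaja1, a J-domain partner of HSP70, was the third, with 12047, 11470 and 12174 normalized counts in Con and 9026, 8706 and 8590 in VanLip. Its groups did not overlap, and its log2 fold change was -0.44 (SE 0.06, DESeq2 adjusted p = 1.35e-12). Hsp90aa1 and Hsph1 had -0.23 and -0.44, with DESeq2 adjusted p of 0.0505 and 0.059. For Van against Con the same list had 15 members higher, against 3.55% over all members, 0 lower and a median of 0.43. Hspa1a and Hspa1b were at 0.10 and 0.20 in that comparison and were not called. Without VanLip replicate 3, 6 members were called for VanLip against Con. Among 27 genes of the endoplasmic reticulum chaperones and the unfolded protein response, 1 was lower, Herpud1 at -0.32, and the median was 0.04. The count was 0 in edgeR, in the 3 limma fits, with thinned VanLip libraries and with only the Con and VanLip libraries. It was also 0 with the replicate block and without Con replicate 1 or VanLip replicate 1, and 2 without Con replicate 3.

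Sensors and signaling genes of innate immunity changed singly. Nod2 (chr8:88647315-88688474, plus strand), the cytosolic sensor of muramyl dipeptide from bacterial cell walls, had 6636, 5114 and 4922 normalized counts in Con, 4635, 3962 and 3957 in Van, and 2487, 2592 and 2762 in VanLip. The 3 groups did not overlap, and the log2 fold change of VanLip against Con was -1.09 (SE 0.12, DESeq2 adjusted p = 1.51e-15). Of 26 NOD-like receptor and inflammasome members 4 were lower and 0 higher, with a median of -0.13, and the other three were Casp1, the inflammasome protease, at -0.29, Nlrp1b at -0.60 and Nlrc5. The count of 4 of 26, against 3.74% over all members, became 1 in edgeR and without Con replicate 1. Of 32 Toll-like receptor and adaptor members 3 were called, against 3.74% lower and 2.90% higher over all members. Tlr11 at -0.91 and Tlr8 at -0.29 were lower and Tab1, an activator of the kinase TAK1, was higher at 0.33, with a median of -0.06. These 3 calls became 1 in edgeR and 5 without VanLip replicate 3. Tlr2, the receptor for the lipid, had 20898, 13962 and 13677 normalized counts in Con and 19193, 16840 and 12275 in VanLip. These groups overlapped, and its log2 fold change was -0.01 (SE 0.18, DESeq2 adjusted p = 0.991). Its partner Tlr6 was at 0.01 and the kinase Irak1 at -0.06, neither called.

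Downstream, Rel was the 1 of 22 NF-kB subunits and kinases that was called, at -0.68, and the median was -0.04. Over all members 3.74% were called lower and 2.90% higher. Rel was not called by edgeR, by limma, with protein-coding genes only, or without Con replicate 1 or any 1 of the VanLip libraries. Among 30 inhibitors of TLR and NF-kB signaling the median was -0.00, or 0.02 with TMM library sizes, and calls went both ways. Socs3, a feedback inhibitor of cytokine receptors, rose from 12854, 11775 and 14470 normalized counts in Con to 16329, 22013 and 18249 in VanLip. The groups did not overlap, and the log2 fold change was 0.53 (SE 0.12, DESeq2 adjusted p = 0.000513). The phosphatase gene Ptpn6 was higher at 0.29 and the inhibitory receptor gene Cd300lf at 0.42, while Atf3 was lower at -0.61 and the deubiquitinase gene Cyld at -0.31. These 5 calls became 3 in edgeR and without Con replicate 3, and 8 without VanLip replicate 3. Trem2, Irf4 and Aim2 were at 0.20, 0.09 and 0.00 and were not called, with DESeq2 adjusted p of 0.768, 0.837 and 0.994. Aim2 had 9471, 8946 and 9717 normalized counts in Con and 9192, 9040 and 9936 in VanLip, with 7432, 6712 and 6639 in Van. Pde3b, a phosphodiesterase gene, had 1231, 1374 and 1223 normalized counts in Con, 1602, 1256 and 1302 in VanLip, and 4803, 4388 and 4329 in Van. Both genes overlapped between VanLip and Con and not between Van and Con.

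Of 27 inflammatory cytokine and chemokine members 3 were lower, against 3.74% over all members, and 0 higher. Of their fold changes 23 were below 0, against 4715 of 10524 members, and the median was -0.21. The count of calls was 0 in edgeR, 1 without Con replicate 2 or VanLip replicate 2, and 5 without VanLip replicate 1 or 3. Il1a fell by 0.78, Ccl2 by 0.73 and Tgfb1 by 0.20 on the log2 scale, and the groups overlapped in Ccl2. Tnf was at -0.09 with 1096, 644 and 774 normalized counts in Con and 673, 978 and 710 in VanLip. Il1b was at -0.31 and Cxcl2 at -1.14, neither called, with DESeq2 adjusted p of 0.231 and 0.0908. Il6 was too low to be a member, at a mean of 0.642 FPKM in Con and 0.596 in VanLip, and its log2 fold change was -0.35 (SE 0.47). Il10ra, the ligand-binding chain of the interleukin 10 receptor, was named after its values were seen. It had 67228, 67557 and 69196 normalized counts in Con and 47754, 49405 and 47501 in VanLip, a log2 fold change of -0.50 (SE 0.09, DESeq2 adjusted p = 1.25e-06).

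Most fold changes of interferon-responsive genes were below 0, and the number called rested on single libraries. Of 49 interferon-stimulated genes, 44 had a fold change below 0, against 4715 of 10524 members, the median was -0.19, and 2 were called lower, Parp14 and Stat2 at -0.48 and -0.49. The share of 2 in 49 is near the 3.74% over all members. The count was 33 without VanLip replicate 3, 3 without Con replicate 3, and 0 in edgeR and without Con replicate 1 or VanLip replicate 2. All 15 guanylate-binding and immunity-related GTPase members were below 0, against 4715 of 10524 members, with a median of -0.59. Gbp3 at -0.50 and Igtp at -0.62 were called, against 3.74% called lower over all members. Here 10 were called without VanLip replicate 3, and 0 in edgeR and without Con replicate 1. The count was 1 without VanLip replicate 1 or 2, with only the Con and VanLip libraries, and with the replicate block. In edgeR 9 of the interferon-stimulated genes and 8 of the GTPases were at an unadjusted p under 0.05. For Van against Con, which shares the Con libraries, the medians were -0.23 and -0.43. Gbp2, at -0.75, had an SE of 0.36 and was not called.

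Some rapidly induced and glucocorticoid-responsive transcripts were lower in VanLip, while most members of both lists did not pass the test. Cxcr4 and Rgs1, given first, are called genes outside both lists. Cxcr4 (chr1:128588199-128592293, minus strand), the receptor for CXCL12, had 60216, 76250 and 69382 normalized counts in Con, 82538, 59511 and 59013 in Van, and 19572, 32927 and 30166 in VanLip. All VanLip libraries lay below the other groups, with a log2 fold change of -1.32 (SE 0.18, DESeq2 adjusted p = 2.26e-10). Rgs1, which shortens signaling by G proteins, fell by 1.18 on the log2 scale from 25348, 39934 and 27496 to 11213, 14040 and 15619 normalized counts. Of 31 AP-1 and immediate early members 4 were lower, namely Egr3 at -1.37, Atf3 at -0.61, Egr1 at -0.59 and Btg2 at -0.34, and Ier5 was higher at 0.31. Over all members 3.74% were called lower and 2.90% higher. The median of the list was -0.11. The median for Van against Con was 0.12. Egr1 overlapped between the groups, and Ier5 lost its call under most alternatives. The 5 calls of the list became 2 in edgeR and 3 without Con replicate 2 or VanLip replicate 2.

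Of 20 genes of the glucocorticoid receptor and its targets, 6 were lower, against 3.74% over all members, and 0 higher, with a median of -0.16. Per1, also a core clock gene, had 37756, 33743 and 35120 normalized counts in Con and 23680, 21351 and 17231 in VanLip. The groups did not overlap, and the log2 fold change was -0.78 (SE 0.13, DESeq2 adjusted p = 3.07e-07). The transcription factor gene Klf9 had 3987, 4251 and 4487 normalized counts in Con, 7751, 6765 and 7982 in Van, and 2827, 2873 and 2127 in VanLip. It was thus lower than Con in VanLip (-0.70, SE 0.12, DESeq2 adjusted p = 2.87e-06) and higher than Con in Van (0.82). Ddit4, Tsc22d3, Errfi1 and the receptor gene Nr3c1 were lower in VanLip at -1.26, -0.61, -0.37 and -0.21. In Van the list had 4 members higher, against 3.55% over all members, 0 lower and a median of 0.21. For VanLip, edgeR called 2 of the 20. Per1 was the 1 called gene of 12 circadian clock members, whose median was 0.01, and the count was 2 without Con replicate 1 or 3 or VanLip replicate 1 and 4 without VanLip replicate 3.

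The other lower genes with the lowest adjusted p were of mixed function. Lyz1 (chr10:117287797-117292868, minus strand), a lysozyme gene beside the main monocyte lysozyme gene Lyz2, had 14267, 13517 and 12540 normalized counts in Con and 7970, 8193 and 6854 in VanLip. The groups did not overlap, as the naming rule required, with a log2 fold change of -0.81 (SE 0.10, DESeq2 adjusted p = 3.57e-12). Lyz2 was at 0.02 and is so similar that reads can be exchanged, which makes the value of Lyz1 uncertain. Ugcg, which makes glucosylceramide, had 9019, 7837 and 7904 normalized counts in Con, 12691, 10830 and 10660 in Van, and 5648, 5367 and 5187 in VanLip. It was lower than Con in VanLip (-0.61) and higher in Van (0.47), both called. Fam46a, a noncanonical poly(A) polymerase gene, and Arrdc3, an arrestin-domain adaptor gene, fell by 0.47 and 0.92 on the log2 scale, Tmcc3 by 1.20, and the histone demethylase gene Kdm2a by 0.34.

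**Figure D4:**
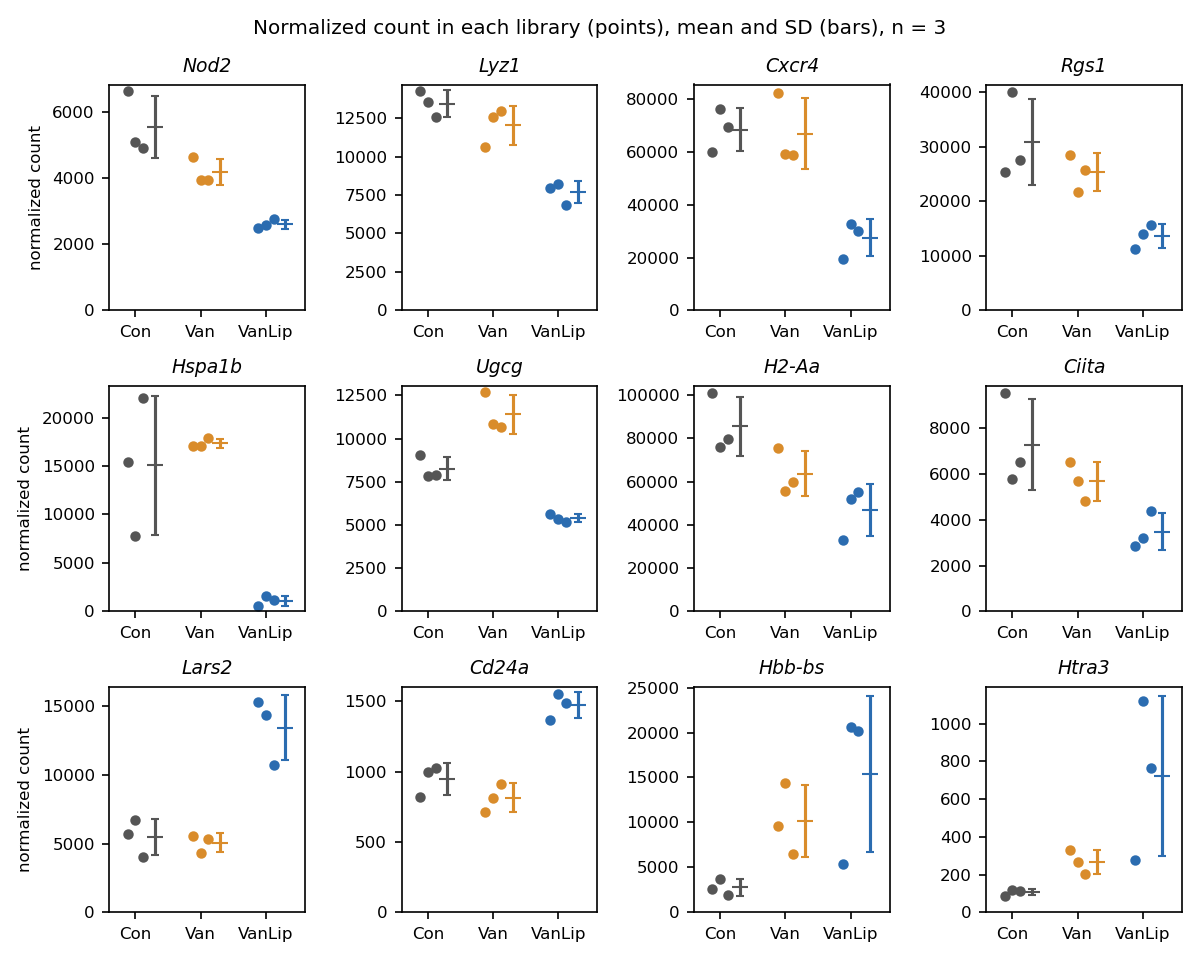
Normalized counts (vertical axis, from 0) of 12 genes in each of the 9 libraries, with the mean and SD of each group beside the points. The 3 VanLip points lie below all Con points in the first 8 genes and above them in Lars2, Cd24a, Hbb-bs and Htra3. For genes named by lowest adjusted p this was a condition of naming.

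Among the higher genes with the lowest adjusted p, several share sequence with other transcripts. Lars2 (chr9:123366927-123462666, plus strand), the leucyl-tRNA synthetase of mitochondria, had 5710, 6691 and 4055 normalized counts in Con and 15252, 14306 and 10718 in VanLip. The groups did not overlap, as the naming rule required, with a log2 fold change of 1.29 (SE 0.18, DESeq2 adjusted p = 2.90e-10). H2-Q2, a class I gene of the Qa region, had 23.2, 0 and 27.8 normalized counts in Con and 288, 234 and 318 in VanLip, and Rps27rt, a copy of a ribosomal protein gene, was higher at 0.91. H2-Q2 and Htra3 are the genes named by lowest adjusted p that are members only through VanLip. Reads of H2-Q2 and Rps27rt can be exchanged with near-identical genes, so these values are uncertain. The lowest adjusted p of all members, 1.36e-28, belonged to Rps12l1, a further copy of this kind at 1.96, named after its values were seen because it overlaps another gene. A further 6 entries, for RNAs known to lack poly(A) tails, were picked because they were high and called, so they stand for no group. Rn7s1, Rn7s2, Rn7sk, Rpph1, Rmrp and the ribosomal RNA entry Rn18s-rs5 had log2 fold changes of 1.86, 2.05, 1.02, 1.66, 1.68 and 1.47, all called. Rn18s-rs5 held 62850, 86652 and 56946 normalized counts in Con and 239585, 191141 and 141659 in VanLip.

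Other higher genes were of mixed function. Clec2i, a lectin that binds receptors of natural killer cells, had 8089, 8783 and 7724 normalized counts in Con and 10012, 14154 and 13652 in VanLip (0.62, SE 0.12, DESeq2 adjusted p = 6.38e-05). Cd24a, a surface glycoprotein gene, had 817, 998 and 1026 normalized counts in Con and 1371, 1553 and 1489 in VanLip, a log2 fold change of 0.64. In both genes the groups did not overlap, which the naming rule required. The complex III assembly factor gene Uqcc3 was higher at 0.55, Llph at 0.37, Tax1bp3 at 0.35 and the dynactin subunit gene Dctn2 at 0.26. Htra3, a secreted protease gene, had 88.0, 121 and 113 normalized counts in Con and 280, 1121 and 765 in VanLip, a log2 fold change of 2.75 (SE 0.40). Every VanLip library lay above every Con library, which the naming rule required, and Htra3 is a member only through its VanLip level. VanLip replicate 1 was the lowest of the 3.

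Erythroid transcripts formed the highest group, and VanLip replicate 1 was the lowest of the VanLip libraries in it. All 8 erythroid markers were called higher, against 2.98% over all genes, and 5 of them were members. Their summed level was 100 to 203 FPKM in Con, 343 to 773 FPKM in Van and 279 to 1165 FPKM in VanLip. The 4 adult globin genes together had 9474 ± 3407 normalized counts in Con and 53136 ± 30569 in VanLip (SD, n = 3 each), 5.61-fold higher. Their sequences are close to each other, so the sum is given. Alas2, the first enzyme of heme synthesis in red cell precursors, had 103, 131 and 85.4 normalized counts in Con, 472, 596 and 293 in Van, and 289, 997 and 1174 in VanLip. Neither treated group overlapped Con, and the log2 fold changes were 2.94 for VanLip and 2.09 for Van. Plasma cell transcripts included Igha, the heavy chain of IgA, with 3011, 4252 and 4263 normalized counts in Con and 8203, 9699 and 20906 in VanLip (1.75, SE 0.44). The other 4 plasma cell markers were not called.

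The remaining marker lists held few calls. Ngp, at -1.94, was the 1 called of 9 neutrophil markers, which summed to 5.91 to 13.7 FPKM in Con and 3.63 to 5.79 FPKM in VanLip, with Ly6g at 0 in every library. The T cell, natural killer cell, platelet, plasmacytoid dendritic cell, red pulp macrophage, mast cell or basophil, eosinophil and stromal or endothelial lists had 0 called markers. Plasmacytoid dendritic cell markers summed to 155 to 174 FPKM in Con and 180 to 205 FPKM in VanLip, and stromal or endothelial markers to 13.8 to 17.9 FPKM and 19.9 to 25.7 FPKM, in both lists without overlap. Red pulp macrophage markers summed to 824 to 999 FPKM in Con and 841 to 1001 FPKM in VanLip.

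The mitochondrially encoded subunits of the respiratory chain were lower in both treated groups. For VanLip against Con 11 of 13 were called lower, against 3.74% over all members, and the median was -0.28. For Van against Con 12 were called lower, against 2.76% over all members, and the median was -0.36, on the same Con libraries. The complex I subunit gene mt-Nd4 had 156853, 165020 and 161783 normalized counts in Con, 121924, 127125 and 137309 in Van, and 121591, 126802 and 139043 in VanLip. The treated groups overlapped each other and not Con, with a log2 fold change of -0.32 (SE 0.07, DESeq2 adjusted p = 0.000839) for VanLip. The ATP synthase gene mt-Atp6 was likewise at -0.32. edgeR called 0 of the 13, DESeq2 with TMM library sizes called 6 and with the GC and length correction 3, and without Con replicate 2 it called 2 (without Con replicate 3, 3; without VanLip replicate 2, 5; without Van replicate 2 or VanLip replicate 1, 6). At an unadjusted p under 0.05, 11 of the 13 passed in edgeR. limma called 0, with 6 at that unadjusted level on log2(FPKM + 1) and 5 on log2(FPKM + 0.1). All 13 fold changes were below 0. Of 76 nuclear respiratory chain members 3 were higher, against 2.90% over all members, and 0 lower. They were Ndufs5 at 0.42, Cox7c at 0.26 and Atp5g3 at 0.25. The list had 63 fold changes above 0, against 5809 of 10524 members, and a median of 0.09. The count of calls was 8 with TMM library sizes, 6 without VanLip replicate 3, 1 without Con replicate 1 or 2 or VanLip replicate 2, and 0 in edgeR.

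Genes that were called in both treated groups with the same sign, and did not overlap Con in either, numbered 90 of the 10524 members. Both comparisons used the same Con libraries, so agreement between them is no independent support, and the values are given side by side as a description. The rule for naming took those with the lowest adjusted p over both comparisons. Higher in both were Mrps7, a mitochondrial ribosomal protein gene, at 0.33 in VanLip and 0.37 in Van, Fbf1 at 0.41 and 0.70, Pop7, a subunit of ribonuclease P, at 0.57 and 0.59, Abhd8 at 0.57 and 0.60, Hs3st2 at 0.73 and 0.89, and Aven at 0.34 and 0.56. Lower in both, beside mt-Nd4 and mt-Atp6, were Casp1 at -0.29 and -0.31, Map3k15 at -0.46 and -0.72, Ighm at -0.36 and -0.52, and Klrk1, the gene of the activating receptor NKG2D, at -0.74 and -0.91. Casp1 had 8451, 8278 and 8225 normalized counts in Con, 6569, 6313 and 7180 in Van, and 6324, 6802 and 7220 in VanLip. Of these 12 genes, Mrps7 and Fbf1 were also called by edgeR for VanLip against Con.

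Lists of monocyte identity held few calls, beside shares of 2.90% higher and 3.74% lower over all members. Of 18 classical monocyte members 1 was higher, Hp, the haptoglobin gene, at 0.63 with 19048, 21620 and 21030 normalized counts in Con and 40199, 29277 and 25972 in VanLip, and the median of the list was 0.25. The count was 0 in edgeR and 2 without VanLip replicate 3. Ly6c2 and Ccr2 were at 0.05 and 0.21. Of 24 nonclassical monocyte members 1 was higher, the fatty acid-binding protein gene Fabp4 at 0.46, and 2 were lower, Bcl2 and Clec4e, both at -0.52, with a median of 0.01. These 3 calls became 0 in edgeR and without Con replicate 1 or VanLip replicate 2, and 1 without Con replicate 2 or 3, Van replicate 2 or VanLip replicate 3. Among 32 chemokine receptors, integrins and adhesion genes the formyl peptide receptor genes Fpr1 and Fpr2 were higher at 0.64 and 0.55 and Cxcr4 was lower, with a median of 0.06, and 5 were called without Van replicate 1. Of 32 myeloid transcription factor members 3 were lower, Runx3, Cebpa and Stat3 at -0.52, -0.38 and -0.30, with a median of -0.03, and 0 in edgeR. Of 33 Fc receptor, lectin and phagocytic receptor members 1 was lower, Clec4e, with a median of 0.01. That count was 0 in edgeR, with fragments, with thinned VanLip libraries, with the GC and length correction, with only the Con and VanLip libraries, without independent filtering, and without any 1 of the Con libraries or Van replicate 2 or 3, 2 without Van replicate 1 or VanLip replicate 3, and 3 without VanLip replicate 1.

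For the metabolic and housekeeping lists, the shares called over all members were 2.90% higher and 3.74% lower. Of 79 cytosolic ribosomal protein members 5 were lower, by 0.14 to 0.30 on the log2 scale, with a median of -0.03. The count was 9 with the GC and length correction, 3 with thinned VanLip libraries and without Con replicate 3 or Van replicate 1, 2 without independent filtering and without Van replicate 3 or VanLip replicate 1 or 3, 1 with only the Con and VanLip libraries and without Con replicate 1 or 2 or Van replicate 2, and 0 in edgeR. Of 31 cholesterol synthesis and efflux members 1 was lower, Insig1, which holds the sterol sensor in the endoplasmic reticulum, at -0.62, with 26 fold changes below 0, against 4715 of 10524 members, and a median of -0.29. The count was 7 without VanLip replicate 3, 5 without Con replicate 2, 3 without VanLip replicate 1, 2 without Van replicate 3, and 0 in edgeR and without Con replicate 1. Of 29 glycolysis and hypoxia members Pgam1 was higher at 0.37, and Pfkfb3 and Ddit4 were lower at -0.35 and -1.26, with a median of 0.02. These 3 calls became 6 with TMM library sizes and without Van replicate 1 or VanLip replicate 3, 1 without Con replicate 1, and 0 in edgeR and without Con replicate 3. Of 29 NRF2, glutathione and thioredoxin members 1 was lower, the NRF2 gene Nfe2l2 itself, at -0.41, with a median of 0.03. The count was 0 in edgeR and 2 without Con replicate 2 or VanLip replicate 3. DESeq2 called 0 of 37 proteasome subunits, whose median was 0.08 and of which 5 were at an unadjusted p under 0.05, and 0 of 27 cell cycle and replication members, with a median of 0.01 and 0 at that level. edgeR also called 0 in both lists, DESeq2 called 2 proteasome subunits with TMM library sizes and 1 without Con replicate 3, and it called 2 cell cycle members without VanLip replicate 1.

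**Figure D5:**
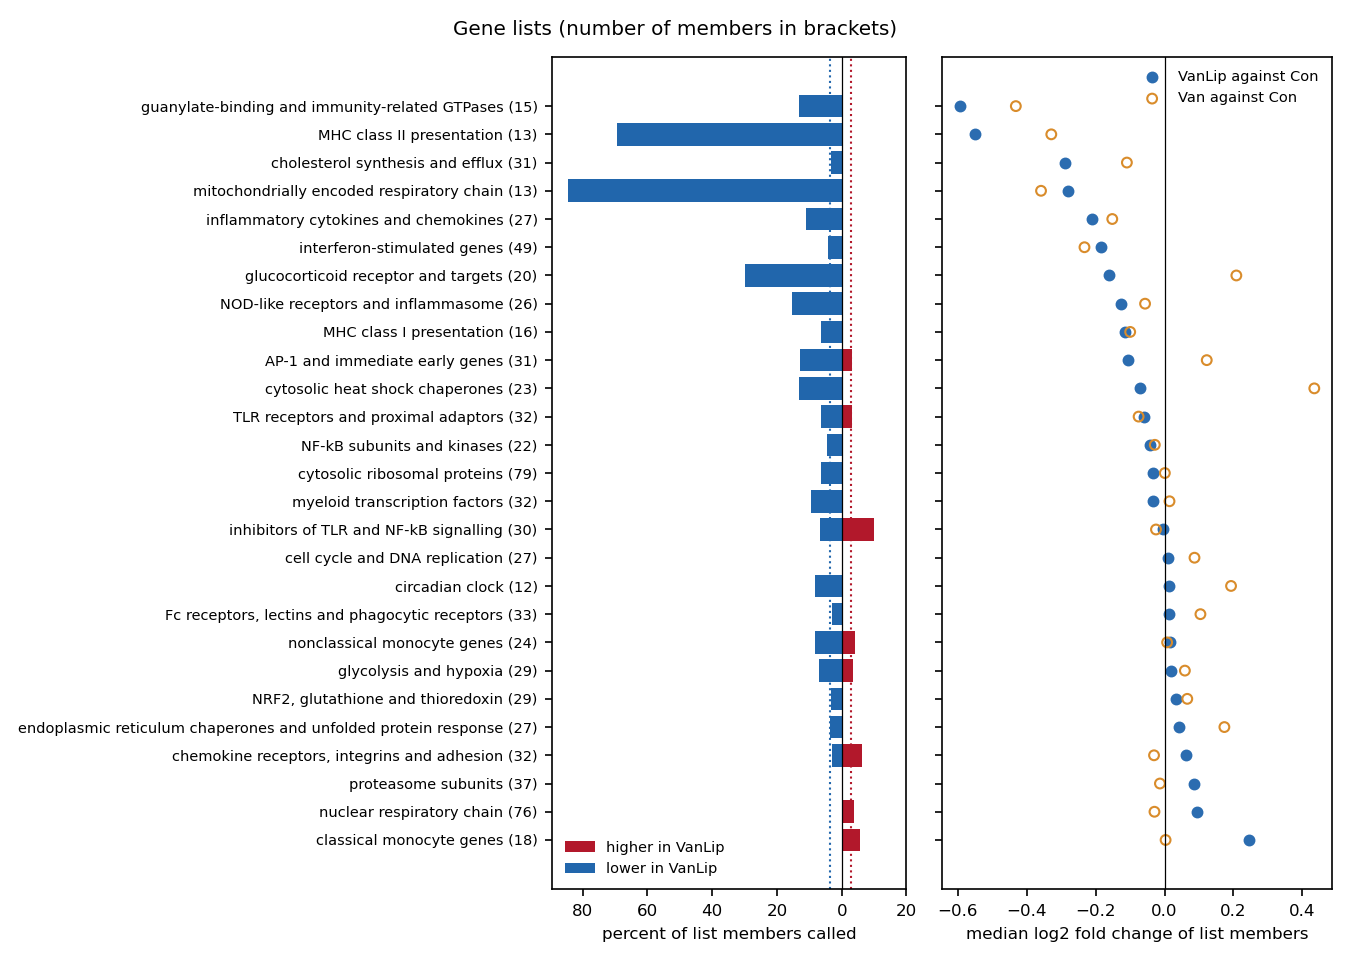
For each of the 27 gene lists, the left panel gives the percent of its members called higher or lower in VanLip against Con, with dotted lines at 2.90% and 3.74% for all members, and the right panel gives the median log2 fold change of VanLip and of Van against the same Con libraries. MHC class II and the mitochondrially encoded genes have the longest bars on the lower side, and the chaperone medians are -0.07 for VanLip and 0.43 for Van.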

How the data were processed

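Poly(A)-selected, stranded libraries from spleen monocytes of 9 mice (3 groups of 3) were analysed. The authors aligned reads to GRCm38 with HISAT2 2.2.1 and SAMtools 1.9, quantified genes with StringTie 2.1.3 and tested with DESeq2 1.38.3, and the annotation release is not given in the sources used here. The authors deposited expected counts per gene, which need not be whole and were rounded here, and FPKM. Total expected counts were 43070361 to 59339748 in Con, 50210853 to 61383806 in Van and 170503470 to 184720704 in VanLip. Fragments were estimated from the counts by assuming that the conversion to counts took reads of 75 bases, which the commonest low counts would fit but no source used here states.

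Group differences were fitted with DESeq2 1.42.0 (Wald test, all 9 libraries, Benjamini-Hochberg threshold 0.05) in R 4.3.3. Alternatives were edgeR 4.0.16 quasi-likelihood, TMM library sizes, other filters, fragments, VanLip libraries thinned to 20090683 fragments, correction for GC content and exon length with mgcv 1.9.3, limma 3.58.1 on log2(FPKM + 1) and log2(FPKM + 0.1), a replicate block and leaving out each library. Scripts were tested on simulated data. Coordinates, exon lengths and overlaps came from GENCODE M21, and promoters from RefSeq. Whether counting used strand is not given in the sources used here, so overlapping genes are uncertain. The methods name reads of 100 bases for all libraries, and the paper's results give the rest of these mice as 8 days. The methods combine spleens for the culture assays without saying whether this was done for RNA, so p-values measure the spread between libraries.

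Genes were named by 4 rules: up to 12 protein-coding members in each direction with the lowest adjusted p, no overlap of groups, 50 or more normalized counts on average in whichever group was higher, no exonic overlap with another gene that is not a pseudogene, and calls also by edgeR and after thinning; up to 6 in each direction called with the same sign in both treated groups without overlap; 10 genes of lipid sensing and signaling; and called or illustrative members of 27 gene lists. Members and lists were chosen with earlier results of these data known. For genes of the first and second rules, no overlap of groups was thus a condition of naming and not a result about them. Genes said to be picked afterwards lie outside these rules. A gene that the first rule selects is not reported here.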

Additional observations from a re-analysis of the deposited data

How the results depend on the processing

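DESeq2 called 1104 genes in all for VanLip against Con, and the count was 289 with edgeR, 711 with thinned VanLip libraries, 646 with protein-coding genes only (fewer genes tested), 237 with limma on log2(FPKM + 1), 168 with a pseudocount of 0.1 and 339 with limma on genes of mean FPKM of at least 1. Leaving out 1 library (fewer samples) gave 606 to 1276. For the 696 members the counts were 121 with edgeR, 434 with only the Con and VanLip libraries, and 100, 25 and 144 with the 3 limma fits in that order, and 322 to 931 with 1 library left out. Apart from these fewer genes or samples, the cause was not tested. Of 138 called named genes, 53 were called under every count-based setting and 14 under every setting, and 0 changed sign. Not every gene had a value in each setting. With protein-coding genes only, 117 kept and 6 lost the call, and with limma on genes of mean FPKM of at least 1, 42 kept and 90 lost it. Of the 24 selected for the lowest adjusted p, 24 were called under every count-based setting and 9 under every setting including limma. Calls by edgeR and after thinning were conditions of that selection, so these outcomes were fixed in advance.

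Genes that were not called changed sign around 0. Aim2 was at -0.0004 with a filter of 10 counts in 3 libraries, -0.0101 with protein-coding genes only, and -0.0876, -0.0891 and -0.0876 with limma. Tlr2 was at 0.0169 with edgeR and with TMM. Tlr6 was at -0.0029 with protein-coding genes only and at -0.0143, -0.0148 and -0.0143 with limma. With 1 library left out, Trem2 ranged from -0.2356 to 0.465, Irf4 from -0.1016 to 0.215, Aim2 from -0.041 to 0.0289, Il6 from -0.7897 to 0.0085, Tnf from -0.2771 to 0.1513, Tlr2 from -0.1525 to 0.2208 and Tlr6 from -0.097 to 0.155.

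What the replicate numbers stand for is not given in the sources used here. Same-numbered libraries had correlations of -0.06 to 0.12 in their deviations from group means. Each is a single value over many genes, and a batch shared by same-numbered libraries was not tested gene by gene. With the replicate block, 1146 genes and 473 members were called, 162 higher and 311 lower. The 5 ribosomal protein calls became 1, the 3 nuclear respiratory chain calls 1, and the 2 GTPase calls 1. The 1 endoplasmic reticulum call became 0, and the 1 call among Fc receptors, lectins and phagocytic receptors became 2. Differences under 1.5-fold rest on 3 mice a group, and the depth and read length of VanLip cannot be told apart from its treatment.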

Other observations

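Further called genes were picked after their values were seen and share no exonic base with another gene that is not a pseudogene. Rasgef1b, an exchange factor for small GTPases, had 10447, 6851 and 8576 normalized counts in Con, 10605, 7829 and 6532 in Van, and 3666, 3575 and 3630 in VanLip. The VanLip libraries lay below all others, with a log2 fold change of -1.25 against Con (SE 0.17, DESeq2 adjusted p = 2.90e-10) and of -0.05 for Van. Prdm1, which encodes the repressor BLIMP1, had 5109, 3405 and 3086 normalized counts in Con and 2168, 2135 and 1826 in VanLip, a log2 fold change of -0.92 (SE 0.17).

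The activation marker gene Cd83 was lower at -1.01, with a DESeq2 adjusted p of 0.0339 and an edgeR adjusted p of 0.0722. The lectin gene Mgl2 was at -1.42, the phosphodiesterase gene Pde4b at -0.75 and the inflammasome sensor gene Naip3 at -0.59, all called by DESeq2 and edgeR. Adora2a, the gene of an adenosine receptor, was higher at 0.60, with 1929, 1485 and 1965 normalized counts in Con and 2509, 2736 and 2880 in VanLip. In Adora2a and Prdm1 the VanLip and Con libraries did not overlap.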
